A study of Euphorbia esula with 15 samples.

Results

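The data compare crown buds of leafy spurge 6 h after the shoot was removed with crown buds of intact plants (0 h), and use 7 of the 15 libraries of the study, 3 at 0 h and 4 at 6 h. Leafy spurge (Euphorbia esula) is a perennial weed that regrows from underground adventitious buds on its crown and roots. All plants were of cultivar 1984-ND001, were raised in a greenhouse, were acclimated in a warm growth chamber under long days and received no glyphosate. For the 6 h group the aerial stem was cut off at soil level, whereas the 0 h group kept its shoots. Each library was made from polyA RNA of crown buds pooled from many plants, so the spread between libraries is the spread between pools, and a change can come from a few buds or from all. The study's methods place every harvest around midday, with the 6 h plants cut early that morning, while the labels give an hour that reads as midnight, again for all groups. The 24 h and 72 h groups (4 libraries each) had their shoots removed 1 and 3 days before harvest and enter here only beside the 6 h values.

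Paradormancy is the arrest of a bud by signals from another part of the same plant, among them auxin from the growing shoot tip and signals from the leaves. Removal of the shoot removes their source. The effect of sugar on bud growth differs between species. The buds of leafy spurge sit below ground on the crown. The first hours after decapitation take in a wound, the loss of the leaves and the start of release.

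The unit of measurement is the component, a group of assembled contigs treated as 1 gene. It is named here by its identifier, by the Arabidopsis gene code (AGI) of the contigs that carry most of its counts, and by their best protein hit. Roles given below are those known from Arabidopsis. Values are normalized counts, that is, expected counts divided by a size factor of the library. A component was tested if it exceeded 10 normalized counts in every library of 0 h or of 6 h, which left 17600 components that hold 98.5% of the expected counts. Of these, 15332 have an AGI. Both groups passed the filter for 16240 components, only 0 h for 776 and only 6 h for 584, and components of the last 2 kinds were in part selected for a difference.

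Library totals overlapped, with 2569254 to 6649334 expected counts at 0 h and 2589107 to 7981890 at 6 h. Spearman correlations over the tested components were 0.977 to 0.987 between replicates and 0.952 to 0.967 between a 0 h and a 6 h library. The share of counts with a non-plant best hit was 0.123 to 0.150% at 0 h and 0.121 to 0.139% at 6 h. Genes that mark shoot meristems were present, and their means at 0 h and 6 h, summed over the components of each, went both ways. KNAT1 had 537 and 484 normalized counts, STM 182 and 136, CUC2 21.0 and 10.4, CLV1 89.6 and 141, and ANT 549.6 and 681. Of 6 root markers, PLT1, WOX5, CASP1, PIN2 and RHD6 had no count and PLT2 had 21.0 over the 7 libraries. The summed markers of shoot meristem, xylem and epidermis overlapped between the groups. Phloem markers did not, at 1235 to 1353 at 0 h and 1783 to 2132 at 6 h (exact two-sided permutation p = 0.0571, the smallest that 3 and 4 libraries allow). The difference lay in SUC2, the sucrose carrier of phloem companion cells (981 and 1709.9 summed over its components), while APL was at 30.5 and 26.4 and SEOR1 at 285 and 281. In bulk buds, more cells of a type and more RNA per cell cannot be told apart.

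At 6 h, 3495 components (19.9% of those tested) differed from 0 h when edgeR's quasi-likelihood p, adjusted over all tested, was held under 0.05, 1831 of them higher (10.4%) and 1664 lower (9.45%). These shares are the background for every count below. The gene lists were chosen with earlier results of these data known, so their shares are descriptions. Most changes were small, with a median log2 fold change of 0.62 among the up-regulated and -0.55 among the down-regulated components. Over all components tested the median was 0, near which the scaling itself places it. At least 2-fold changes were reached by 371 up-regulated and 260 down-regulated components, and at least 4-fold changes by 62 and 41. The libraries of the groups did not overlap for 1642 of the up-regulated and 1496 of the down-regulated components, beside 29.1% of all components without regard to the test.

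**Figure D1:**
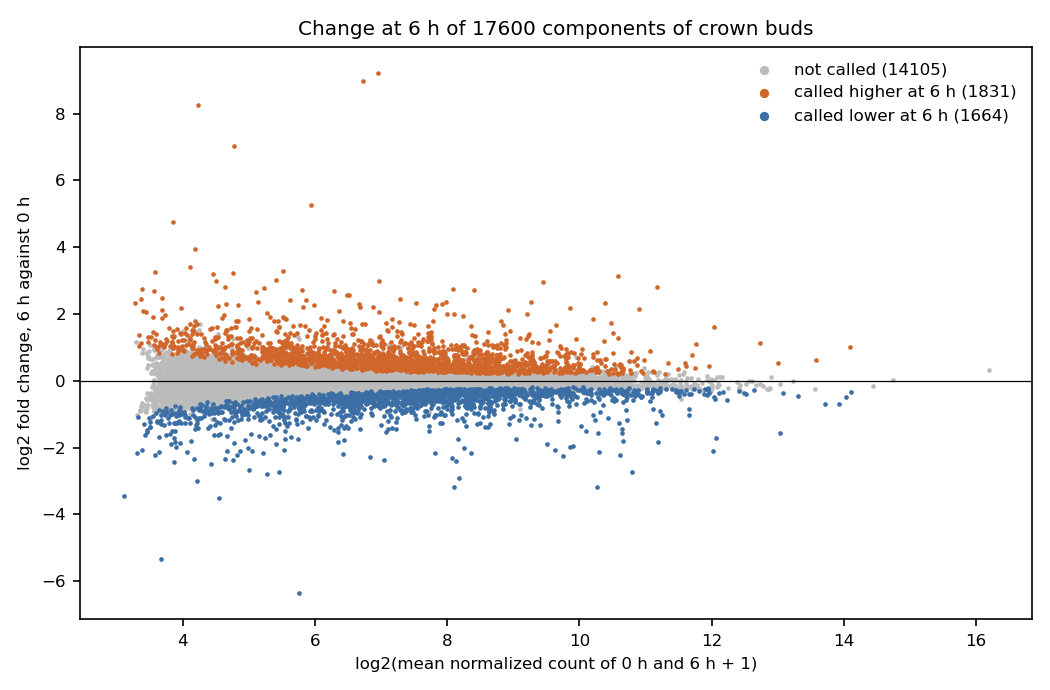
Each point is 1 of the 17600 tested components, with its mean normalized count in both groups on a log2 axis (x) against its log2 fold change from 0 h to 6 h (y). Colours mark the 1831 components called higher and the 1664 called lower, and grey points were not called. Most called components lie within 1 of the zero line, and the largest changes are found at low to middle levels.

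The strongest early rises took in a redox protein, cell wall and sugar proteins and a hormone receptor. They were chosen by a rule: called, groups not overlapping, a plant hit, and an AGI that carries at least 80% of the counts, in order of fold change. Of the 15 largest rises 11 passed the filter through 6 h only, and of the 15 largest falls 11 through 0 h only. Such components were admitted by the group in which they were high, so their folds and p-values describe them and are no independent support. First was CXXS1 (comp104864_c0, AT1G11530, best hit thioredoxin H-type), a relative of thioredoxins. Its normalized counts were 0.810, 1.66 and 5.24 at 0 h and 151, 119, 79.9 and 121 at 6 h. It was nearly silent in intact plants and clearly present in every pool after the cut. The log2 fold change was 5.28 (SE 0.35, edgeR adjusted p = 9.5e-10).

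Next was comp110221_c0 (AT5G62360), of the family of invertase and pectin methylesterase inhibitors, with 0, 0 and 1.96 at 0 h and 18.5, 30.9, 31.0 and 24.5 at 6 h. As 0 h holds only 3 counts, the ratio of 30.6 has a 95% counting interval of 10.2 to 150.5, which covers counting error only. PYL4 (comp111371_c0), a receptor for abscisic acid, had 2.43, 0 and 2.62 at 0 h and 29.6, 34.6, 21.2 and 45.6 at 6 h (log2 fold change 3.95, SE 0.58, edgeR adjusted p = 3.9e-05). EXLB1 (comp107786_c0), an expansin-like cell wall protein, had 2.43, 3.31 and 2.62 at 0 h and 21.0, 27.9, 34.3 and 36.1 at 6 h (log2 fold change 3.41, SE 0.40, edgeR adjusted p = 2.6e-06). Like CXXS1, these 3 were at a few reads per library in intact plants and passed the filter through 6 h only.

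Rises from a higher base were as clear. A lectin-domain protein (comp108861_c0, AT1G78850, best hit epidermis-specific secreted glycoprotein EP1) had 328, 339.8 and 281 at 0 h and 3186, 2867, 2314 and 2639 at 6 h, an 8.77-fold rise. ASN1 (comp115335_c0), the asparagine synthetase that dark and sugar shortage induce, had 560.2, 514 and 645 at 0 h and 5725, 4412, 2677 and 3351 at 6 h. Every 6 h pool was several times above every 0 h pool, and the rise was 7.02-fold (log2 fold change 2.81, SE 0.18, edgeR adjusted p = 6.4e-10). MIOX4 (comp104194_c0, AT4G26260), a myo-inositol oxygenase that opens the inositol ring on the way to cell wall sugars, had 143, 187 and 158 at 0 h and 1836, 1528, 677 and 869 at 6 h, a 7.72-fold rise. For both ASN1 and MIOX4 replicates 1 and 2 of 6 h were higher than replicates 3 and 4.

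The other leaders rose from low levels. A sugar transporter-like protein (comp129771_c1, AT5G18840) had 34.8, 46.4 and 11.8 at 0 h and 296, 265, 137 and 168 at 6 h (8.02-fold). The sesquiterpene synthase TPS21 (comp127337_c0) rose 9.49-fold, the F-box protein PP2-A13 (comp109509_c1) 9.22-fold, AT4G30420 of the family of amino acid exporters known as UMAMIT (comp124109_c0) 9.32-fold and AT5G21910 (comp110735_c0, a conserved hypothetical protein) 9.80-fold. The aspartic protease-like AT1G03220 (comp126978_c1) rose 6.97-fold, the stress protein OXS3 (comp101878_c0) 6.93-fold and the glutathione transferase GSTU7 (comp110908_c2) 6.77-fold. Their means at 0 h were between 2.34 and 31.0 normalized counts, and all but the sugar transporter-like protein passed the filter through 6 h only.

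The 5 largest gains in counts were those of abundant transcripts. The catalase CAT2 (comp126585_c0), which removes hydrogen peroxide in peroxisomes, had 11908, 11659 and 11552 at 0 h and 22974, 24457, 22569 and 23754 at 6 h. Its pools hardly varied within a group, and it rose 2.0-fold (SE 0.09 on the log2 scale, edgeR adjusted p = 4.1e-08). A class III peroxidase (comp120457_c0, AT1G71695) rose 1.53-fold, from a mean of 9696 to 14816. DRM1 (comp136283_c0, best hit auxin-repressed 12.5 kDa protein), a gene known from dormant buds, had 3149, 3762 and 5908 at 0 h and 10655, 8608, 8630.0 and 9348 at 6 h (2.18-fold, edgeR adjusted p = 5.2e-05). AT5G19140 (comp130794_c0, best hit stem-specific protein TSJT1) rose 2.15-fold, from a mean of 2198 to 4729, and ASN1 was also among these 5 gains.

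The deepest fall among components that met the rule was that of PIN5 (comp106462_c0, AT5G16530), an auxin carrier of the endoplasmic reticulum. Its normalized counts were 20.2, 21.5 and 26.8 at 0 h and 0, 0.516, 1.63 and 0 at 6 h. With 79 counts at 0 h and 2 at 6 h, the ratio of 49.5 has a 95% counting interval of 13.3 to 416. PIN5 passed the filter through 0 h only. The log2 fold change was -5.33 (SE 0.53), and the mean was 12.1 at 24 h.

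Several other deep falls belonged to starch storage. GPT2, which carries glucose 6-phosphate into plastids, fell in 2 components. Component comp130161_c0 had 1945, 2017 and 2658 at 0 h and 138, 241, 321 and 276 at 6 h, 9.12-fold lower (log2 fold change -3.19, SE 0.19, edgeR adjusted p = 2.7e-10). Component comp137243_c0 had 442, 492 and 536 at 0 h and 49.4, 45.6, 62.0 and 67.8 at 6 h, 9.0-fold lower. Both were far below their 0 h range in every 6 h pool. APL4 (comp132339_c1, AT2G21590), a large subunit of ADP-glucose pyrophosphorylase, which makes the sugar donor of starch, had 2892, 2469 and 3905 at 0 h and 297, 412, 693 and 482 at 6 h, 6.66-fold lower (edgeR adjusted p = 3.2e-09).

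The deep falls also held 2 heat shock components of low level. The HSP90 component comp135061_c0 (AT5G56010) had 12.1, 34.8 and 74.6 at 0 h and 3.70, 2.58, 8.16 and 2.34 at 6 h, and the HSP70 component comp130330_c0 (AT5G02500) had 11.3, 29.8 and 51.1 at 0 h and 6.17, 2.58, 4.89 and 3.5 at 6 h. Both varied several-fold among the 0 h pools, with replicate 3 highest and replicate 1 lowest, and RSEM divides reads among such close copies by estimation. The polyA-binding protein AT2G36660 (comp118724_c0) had 10.5, 13.3 and 17.7 at 0 h and 1.23, 0.516, 1.63 and 2.34 at 6 h, the RCC1-type protein AT3G55580 (comp123578_c1) 68.0, 72.9 and 58.3 at 0 h and 6.17, 9.28, 3.26 and 17.5 at 6 h, and the nucleoredoxin NRX1 (comp135918_c0) 63.2, 53.0 and 105 at 0 h and 8.64, 11.4, 17.9 and 9.35 at 6 h. These 3, like both heat shock components, passed the filter through 0 h only. A nucleoside transporter (comp110632_c0, AT1G02630) was 6.40-fold lower, a protease inhibitor (comp121540_c0, AT2G38870) 5.57-fold, a thaumatin-like protein (comp99007_c0, AT1G20030) 5.41-fold, the plastid phosphorylase PHS1 (comp100868_c1) 5.24-fold, GSTF11 (comp111593_c0, a glutathione transferase) 5.13-fold and the pectin methylesterase inhibitor-like AT3G17130 (comp130979_c0) 5.11-fold. They completed the 15 largest falls, and of these 6 only PHS1 passed the filter through both groups.

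Among abundant transcripts, the largest loss was that of an S-adenosylmethionine decarboxylase (comp120485_c0, AT5G15950), an enzyme of polyamine synthesis. It had 12921, 12500.3 and 12327 at 0 h and 4011, 4075, 4595 and 4434 at 6 h, 2.94-fold lower with tight groups (SE 0.09 on the log2 scale, edgeR adjusted p = 1.2e-10). A type 2 metallothionein (comp100494_c0, AT3G09390) fell 1.63-fold, from a mean of 19259 to 11793. The most counted HSP90 (comp134924_c0) and HSP70 (comp129972_c0) components fell 1.61-fold and 1.42-fold. The granule-bound starch synthase GBSS1 was also among these 5 losses.

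**Figure D2:**
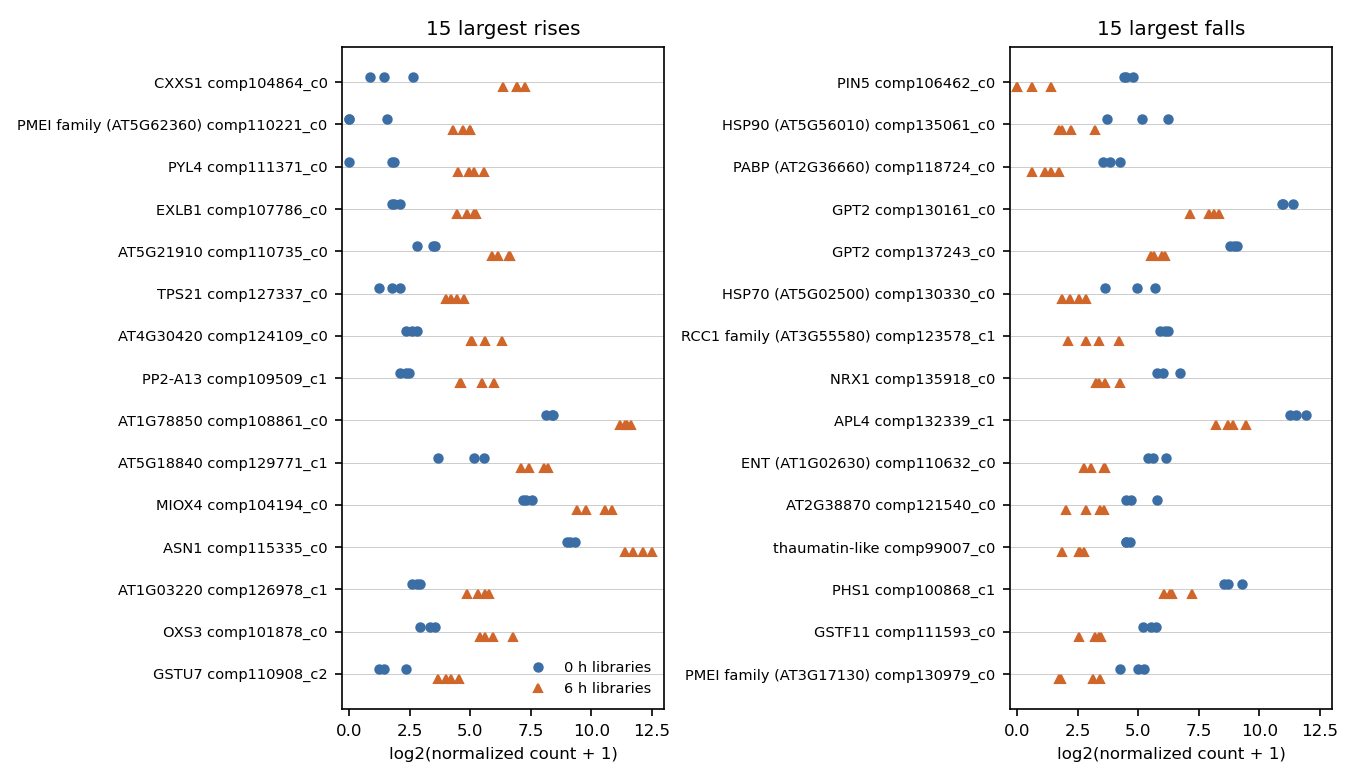
Normalized counts on a log2(count + 1) axis of the 15 largest rises and the 15 largest falls chosen by the rule, with 1 symbol for each of the 3 libraries at 0 h and the 4 at 6 h. By that rule the groups do not overlap in any row. GPT2, APL4 and ASN1 changed at high levels, while CXXS1, PYL4 and PIN5 were close to 0 in 1 of the groups.

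Starch is built in plastids from ADP-glucose by starch synthases and branching enzymes and is taken apart by phosphorylase, glucan dikinases and amylases. Of 34 tested components on the list for sucrose and starch metabolism, 16 were lower and 5 higher at 6 h (61.8% called), with a median log2 fold change of -0.19. APL4, described above, is not on this list. The falls ran through starch synthesis. GBSS1 (comp112228_c0), which makes amylose, had 6603, 6060.3 and 7485 at 0 h and 1329.5, 1430.3, 1902 and 1687 at 6 h, 4.24-fold lower (log2 fold change -2.09, SE 0.11, edgeR adjusted p = 2.3e-11). The branching enzyme SBE3 (comp133490_c0) had 5967, 5564 and 8225 at 0 h and 1904, 1885, 2612 and 1729 at 6 h, 3.25-fold lower. APS1, the small subunit of ADP-glucose pyrophosphorylase (comp121805_c1), fell 2.49-fold from a mean of 962 to 392. The log2 fold changes of SS2, SBE2 and SS3 were -0.98, -0.77 and -0.34, and SS1 was not called (-0.14).

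On this list, enzymes of starch breakdown were also lower where they were called, with the exception of an amylase. The beta-amylase-like BAM9, which is on another list, rose 3.57-fold. PHS1 had 4 tested components, of which comp103591_c0 had 2249.6, 2075 and 3421 at 0 h and 430.4, 506, 777 and 517 at 6 h (4.69-fold lower, edgeR adjusted p = 6.1e-09). A further 2 had log2 fold changes of -2.24 and -2.39, and the fourth, comp131106_c0, was not called (means of 51.9 and 55.9). The glucan, water dikinase GWD1, the glucanotransferase DPE2 and the phosphatase SEX4 were lower, with log2 fold changes of -0.85, -0.84 and -0.40. In the opposite direction the alpha-amylase AMY1 rose by 0.40, and the beta-amylase BAM1 was not called in either component (0.05 and 0.21). GPT2 had 2 more components without a call (-0.23 and -0.15), so 2 of its 4 components were called.

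Genes of sucrose use were called in both directions. SUS3, a sucrose synthase (comp118077_c0), had 664, 675 and 1080.4 at 0 h and 1880.1, 1909, 1734 and 1842 at 6 h, a 2.27-fold rise (edgeR adjusted p = 9.2e-06), and the cell wall invertase CWINV1 (comp99141_c0) had 42.1, 58.0 and 32.7 at 0 h and 122, 119, 109 and 88.8 at 6 h (2.64-fold). SUS4 (comp128484_c0) had means of 7336 and 7954 and was not called. The sucrose phosphate synthase SPS4F, on the side of sucrose synthesis, fell 3.02-fold. The 5 higher components were SUS3, 2 of CWINV1, AMY1 and 1 of 2 vacuolar invertase components (VIN2, 0.81), whose other component was lower (-0.72). Here and below, members of a list that fall outside the rule were named after their values were seen.

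Sugar carriers that were called were mostly higher. Of 21 tested components, 9 were higher and 1, the vacuolar carrier TMT2 (-0.37), lower. The hexose carrier STP14 (comp127528_c0) had 100.4, 66.0 and 75.3 at 0 h and 190.0, 198, 139 and 188 at 6 h, and SWEET1 (comp110720_c0), which lets sugar pass membranes along its gradient, had 135, 101 and 119 at 0 h and 281, 253, 255 and 269 at 6 h. Of each gene the lowest 6 h pool was above the highest 0 h pool. STP1 rose by 0.96 and SWEET2 (comp111946_c1) by 0.97 on the log2 scale. The phloem loader SUC2 (comp130060_c1) rose 1.75-fold, from a mean of 759 to 1322 (edgeR adjusted p = 7.5e-06). Neither SUC2 nor the sugar transporter-like AT5G18840 is among the 21 components.

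On the list of genes tied to darkness or sugar supply in Arabidopsis, 12 of 17 tested components were higher and 2 lower (82.4% called). The median log2 fold change of the 17 was 0.70. The list is not limited to genes that sugar shortage induces. After ASN1 came TPS9, a class II trehalose phosphate synthase-like protein, with log2 fold changes of 2.1 and 1.39 in its 2 components, and BAM9 (comp132099_c0), a beta-amylase-like protein, with 557, 595 and 408 at 0 h and 2273, 2082, 1392 and 1585 at 6 h (3.57-fold, edgeR adjusted p = 6.3e-08). TPS10 rose by 1.33, TPS5 by 0.70 and TPS7 by 0.60 and 0.46. The Kelch F-box proteins KFB20 and KFB39, which target the entry enzyme of phenylpropanoid synthesis for breakdown, rose by 1.23 and 1.11. The 2 lower components, named after their values were seen, were bZIP11 (comp113627_c0), a transcription factor whose translation sucrose represses, with 346, 353 and 295 at 0 h and 125, 155, 189 and 175 at 6 h, and TPS8 (-0.25). A second bZIP11 component was not called (-0.03).

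Enzymes that break down amino acids went the same way, with 9 of 13 tested components higher and 1 lower, and a median log2 fold change of 0.80. Proline dehydrogenase ProDH1 (comp124090_c0) had 64.8, 63.0 and 109.9 at 0 h and 593, 448, 268 and 317 at 6 h (4.96-fold, edgeR adjusted p = 8.2e-07). BCE2, IVD, MCCA and MCCB, which degrade branched-chain amino acids, rose by 0.80, 0.75, 1.16 and 0.83 on the log2 scale. PCK1, phosphoenolpyruvate carboxykinase, a step from organic acids back to sugar, rose in both components (1.21 and 1.08). The glutamate dehydrogenase GDH1 (comp126181_c1) was the exception, with 154, 154 and 151 at 0 h and 91.3, 83.0, 45.7 and 81.8 at 6 h, and the glutamine synthetase GLN1-1 was not called (-0.12).

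Flavonoids are made from phenylalanine through the general phenylpropanoid steps and then from chalcone synthase (CHS) onwards. Of 29 tested components of the flavonoid and anthocyanin list, 14 were lower and 1 higher (51.7% called), with a median log2 fold change of -0.46. CHS was lower in both of its components. Component comp114422_c0 had 4446, 3924 and 2541 at 0 h and 778, 919, 1139.8 and 1249.7 at 6 h, 3.56-fold lower (log2 fold change -1.83, SE 0.19, edgeR adjusted p = 4.1e-07). Component comp111251_c1 had 3069.5, 2894 and 1592 at 0 h and 589, 633, 760.3 and 926 at 6 h. For each of them 0 h replicate 3 was the lowest of its group and still above every 6 h pool. Each enzyme from chalcone isomerase to anthocyanidin reductase had a component that was called lower, with log2 fold changes of -1.03 for CHI, -1.21 for its helper CHIL, -0.86 for F3H, -1.45 for the flavonoid 3′-hydroxylase, -1.57 for DFR, -1.19 for LDOX and -1.25 for ANR.

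The largest fall of the list was a glycosyltransferase, UGT78D2 (-2.11 and -1.58, both of which passed the filter through 0 h only, with 2 more components not called). DFR (comp90689_c0) had 2913, 2683 and 1599 at 0 h and 666, 857, 814 and 877 at 6 h. TT12, which carries proanthocyanidin precursors into the vacuole, fell 2.13-fold. Of the regulators, TT8 was called (-0.46), while TTG1 (-0.58 and -0.56), PAP1 (-0.13), EGL3 (0.08), TT2 (0.08 and 0.67) and MYB12 (-0.01 and 0.12) were not. The 1 higher component was a second DFR-like one of low level (comp123571_c0, 65.6% of its counts on the AGI of DFR, means of 11 and 19.3), named after its value was seen. The best hits of DFR (comp90689_c0) and F3H read cinnamoyl-CoA reductase and gibberellin 20-oxidase, so these names rest on the AGI.

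The general phenylpropanoid and lignin steps split. PAL1 (comp126474_c0), the entry enzyme, had 2045, 1783 and 1186 at 0 h and 678, 756, 674 and 827 at 6 h (2.27-fold lower, edgeR adjusted p = 5.2e-05), and C4H fell 2.19-fold. Of 20 tested components 6 were higher and 3 lower (5 without 0 h replicate 3). C3H1 (comp131807_c0), a lignin step, had 671, 622 and 665 at 0 h and 1230.1, 1182, 985 and 1244 at 6 h (1.78-fold), and CCoAOMT1, HCT and CCR1 also had components that rose (1.32 and 0.45, 0.52, and 0.34). The gene-specific sequences at hand are RT-qPCR primers of the study, matched to components by Arabidopsis code. Those of CHS and PAL1, the entry enzymes of both pathways, and of the gibberellin receptor GID1B described further on are printed because they mark these transcripts in leafy spurge, in lower case from 5′ to 3′ and without capitals, since no base is singled out.
CHS forward: tgaaataccaaaactaggcaaaga
CHS reverse: atctcagaacaaaccacaagcaca
PAL1 forward: aatggttaagcttggtggtca
PAL1 reverse: aagattccggcattcaaaaac
GID1B forward: tctagagcgcaaagtgaacg
GID1B reverse: ttagcagaggaatgagtgaagc

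Each of these codes has 2 tested components, and the place of the primers in them was not tested. The other PAL1 component was not called, with means of 508 and 503.

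**Figure D3:**
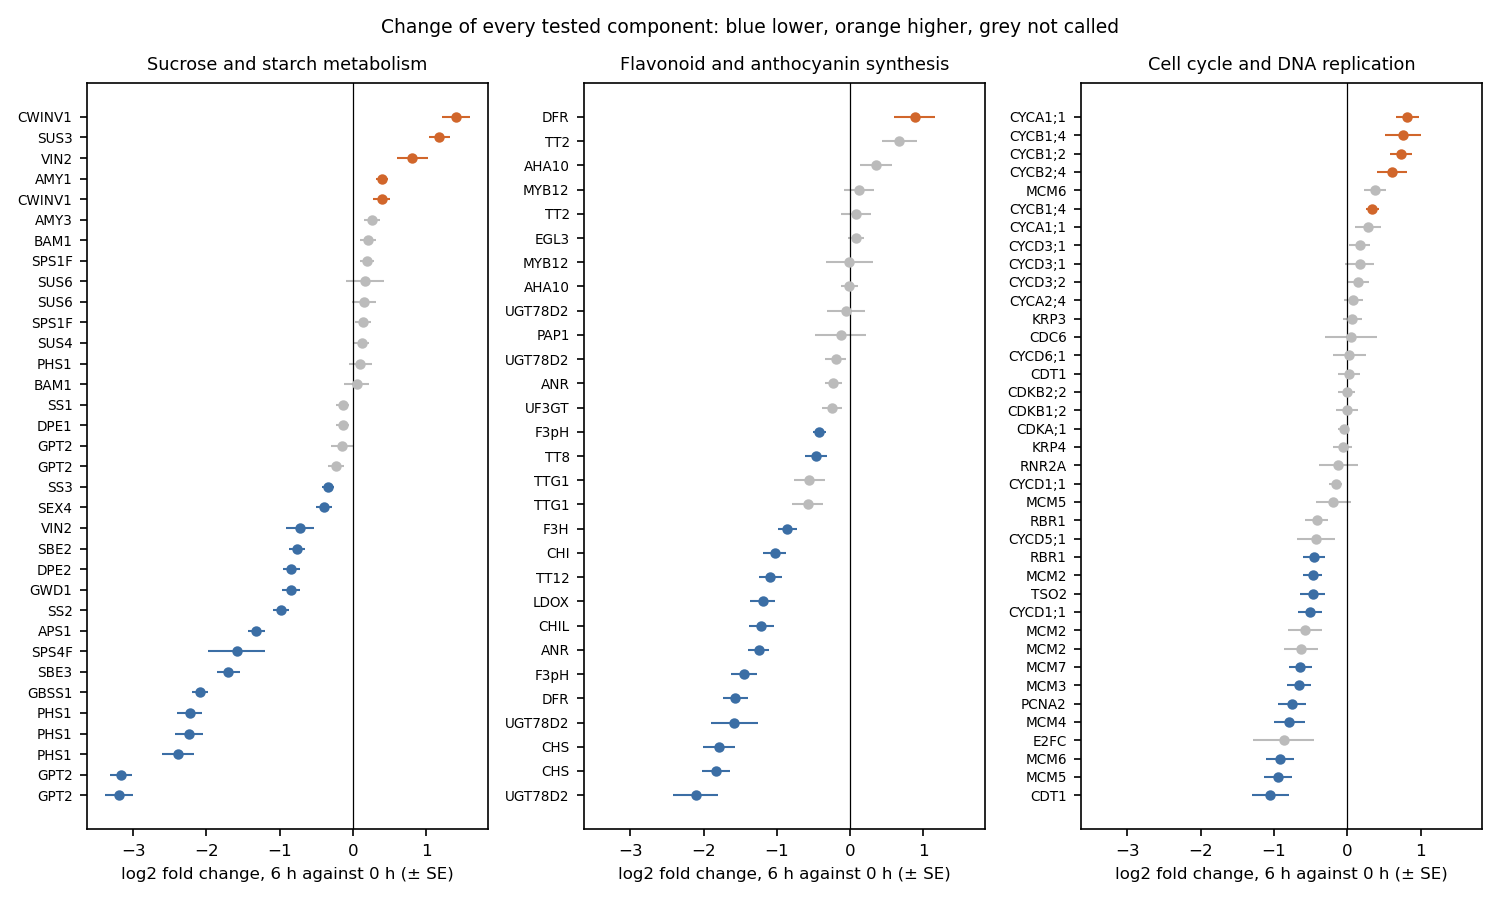
Log2 fold change from 0 h to 6 h with its standard error for every tested component of 3 gene lists (starch and sucrose, flavonoid, cell cycle), labelled by gene symbol. A symbol repeats where several components share an AGI, F3pH is the flavonoid 3′-hydroxylase, and grey components were not called. Most called starch and flavonoid components lie below 0. On the cell cycle list many components were not called. Most called below 0 are replication genes, and those called above 0 are cyclins of types A and B. The number of these calls depended on single libraries.

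Heat shock proteins are chaperones that hold or refold damaged proteins. By the words of their best hits, 72 components were tested, of which 25 were lower and 3 higher (38.9% called), with a median log2 fold change of -0.22. Of these components, 10 passed the filter through 1 group only. The HSP70 component comp112561_c0 (AT3G12580) had 2047, 2042 and 2028 at 0 h and 385, 420.1, 517 and 547 at 6 h, 4.39-fold lower (SE 0.10 on the log2 scale, edgeR adjusted p = 9.5e-12). Its 0 h pools were almost equal. A second component of that AGI (comp125689_c1) was 3.84-fold lower, an HSP90 (comp135518_c0, AT5G52640) 3.38-fold and a plastid ClpB chaperone (comp124293_c0, AT5G15450) 2.59-fold. Small heat shock proteins of AT4G25200, AT2G29500 and AT5G59720 had log2 fold changes of -1.47, -1.26 and -1.15. The 3 higher components, named after their values were seen, had the codes AT2G47440 (0.53), AT1G75100 (1.18) and AT5G62020, a heat shock factor (0.73). Membership rests on the words of the best hit, so a code on this list need not be that of a heat shock protein. Without 0 h replicate 3 there were 5 higher and 23 lower. Components that share an AGI, such as those of AT3G12580, may split the reads of 1 gene and are not independent.

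Ribosomal proteins shifted slightly. Of 165 components with ribosomal protein in the best hit, 37 were lower and 5 higher (25.5% called), with a median log2 fold change of -0.21 and a lowest value of -0.57. Leaving out 0 h replicate 2 or 3 or 6 h replicate 1 or 2 gave, in place of 42 calls, 24, 20, 23 and 21. The 5 higher components were 2 of AT5G24490, a plastid-specific ribosomal protein (comp110394_c0, 3.17-fold, and 0.59 on the log2 scale), and those of AT3G02290 (0.60), AT1G53560 (0.56) and AT3G13120 (0.39). The list mixes proteins of cytosol, plastids and mitochondria. It rests on the best hit, so a code on it need not be that of a ribosomal protein.

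Cell division runs from the licensing of replication origins through DNA synthesis to mitosis. Of 38 tested components, 11 were lower and 5 higher. Most of the lower ones were replication genes: CDT1 (-1.05), which loads the MCM helicase, the helicase subunits MCM2 to MCM7 (-0.47 to -0.94), the sliding clamp PCNA2 (-0.75) and the ribonucleotide reductase TSO2 (-0.47). CYCD1;1 and RBR1 completed them, and other components of CDT1, MCM2, MCM5 and MCM6 were not called. MCM5 (comp120449_c0) had 277, 268 and 158 at 0 h and 92.6, 117, 122 and 149.5 at 6 h (1.92-fold lower, edgeR adjusted p = 9.9e-04). Its lowest 0 h pool lay just above its highest 6 h pool. The 5 higher components were cyclins of types A and B: CYCA1;1 (0.82), CYCB1;2 (0.73), CYCB2;4 (0.61) and CYCB1;4 in 2 components (0.76 and 0.34). CYCB1;2 (comp112579_c0) had 125, 149 and 90.5 at 0 h and 233, 189, 176 and 178 at 6 h. The counts on this list depended on single libraries, with 4 higher and 4 lower without 0 h replicate 1, 5 higher and 7 lower without 0 h replicate 2, 3 higher and 13 lower without 0 h replicate 3 and 3 higher and 7 lower without 6 h replicate 1. Without 6 h replicate 2 or 4, 3 were higher.

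Strigolactone is a hormone that holds axillary buds back. On the list for its pathway and for branching, 5 of 10 tested components were higher and 1 lower. The receptor D14 (comp124889_c1) had 284, 373 and 294 at 0 h and 709, 569, 620.0 and 606 at 6 h (2.0-fold, edgeR adjusted p = 4.2e-07). CCD7 (comp113774_c1), an enzyme of strigolactone synthesis, had 60.7, 63.0 and 56.3 at 0 h and 127, 101, 111 and 88.8 at 6 h (1.78-fold). BRC2 (comp122454_c0), a TCP factor related to the branching repressor BRC1, had 137, 121 and 138 at 0 h and 241, 243, 232 and 194 at 6 h (1.71-fold). In these 3 genes the groups did not overlap. The repressors SMXL6 and SMXL7, which the pathway degrades, parted: SMXL6 rose by 0.54 on the log2 scale, and the value for SMXL7 was -0.63. HB40, a homeodomain factor downstream of BRC1, rose by 0.56.

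Auxin genes were called both ways, 10 higher and 6 lower of 44 tested on a list that does not hold PIN5. GH3.6 (comp124212_c0), which joins auxin to amino acids, had 227, 224 and 180.0 at 0 h and 662, 631, 514 and 486 at 6 h (2.77-fold, edgeR adjusted p = 4.1e-08). GH3.1 rose in 2 components (1.07 and 0.77) and the auxin oxidase DAO1 by 0.95. The influx carriers LAX3 (a component with 66.0% of its counts on that AGI) and AUX1, the receptor TIR1 and the response factor ARF19 had components that rose (0.68, 0.30, 0.52 and 0.66). Among the Aux/IAA repressors IAA27 (comp108276_c0) had 362, 378 and 368 at 0 h and 218, 245, 262 and 259 at 6 h, IAA16, IAA7 and IAA9 were lower (-0.87, -0.77 and -0.37) and IAA4 higher (0.47). The synthesis gene TAR2 and the response factor ARF8 were lower (-0.52 and -0.40), and the efflux carrier PIN3 was not called.

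For abscisic acid, 9 of 49 components were higher and 7 lower (32.7% called). The receptors were on the higher side. Besides the PYL4 component above, PYL1 (comp109746_c0) had 110.2, 111 and 79.9 at 0 h and 205, 172, 173 and 209 at 6 h, and a second PYL4 (0.91), 2 components of PYL8 (0.44 and 0.45) and PYL9 (0.40) rose, as did the kinase SnRK2.3 (0.58). The phosphatases that the receptors inhibit had components on the lower side, AHG3 in both (-1.40 and -0.81) and ABI1 in 1 of 2 (-0.51), while HAB1 was not called. The response factors ABF3 and ABF4 had lower components (-0.86 and -0.64), as did ABA2, an enzyme of abscisic acid synthesis (comp98466_c1, -0.59).

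Of cytokinin genes, 8 of 24 components were higher and 1 lower. AHP1, a phosphotransfer protein (comp99086_c0), had 23.5, 21.5 and 37.3 at 0 h and 98.7, 81.8, 50.6 and 64.2 at 6 h (2.61-fold, edgeR adjusted p = 2.3e-04). The receptor AHK3 rose by 0.58, the synthesis gene IPT5 by 0.94, the activating enzyme LOG5 by 0.48 and the cytokinin oxidase CKX5, which removes the hormone and has 61.1% of the counts of its component, by 0.65, while the receptor AHK4 was lower (-0.37). For gibberellin, 5 of 25 components were higher and 1, the kaurene synthase KS (-0.73), lower (24.0% called, near the background). The receptor GID1B and the GRAS-family gene SCL3 were among the former. GID1B rose in both components, and comp137038_c0 had 140.1, 128 and 118 at 0 h and 257, 258, 169.7 and 196 at 6 h (1.75-fold). GA3ox1, which makes active gibberellin, rose by 0.82 in 1 of 2 components, and GA2ox2 (comp115178_c0), which inactivates it, by 1.25.

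Jasmonate genes were called in 17 of 35 components, 11 higher and 6 lower. Of the 35 components, 5 passed the filter through 1 group only. Of the 11 higher ones, 5 share the code of LOX2 and are not independent. The lipoxygenase LOX2 (comp137538_c0), at the start of jasmonate synthesis, had 668, 403 and 1009 at 0 h and 2236, 2732, 4921 and 2716 at 6 h (4.44-fold, edgeR adjusted p = 1.3e-05). LOX2 rose in 5 components in all, AOS, the next step, by 0.85, and CYP94C1 and CYP94B3, which inactivate the hormone, had components that rose by 1.02 and 1.43. OPR3, a later synthesis step (-0.81), the cyclase AOC4 (-0.44), MYC2, a main transcription factor of the response (-0.73 and -0.69), and the repressors JAZ10 and JAZ3 (-0.46 and -0.38) were lower. The balance depended on single libraries, with 6 higher and 7 lower without 0 h replicate 3, 7 higher and 6 lower without 0 h replicate 2 and 7 higher and 5 lower without 6 h replicate 2. For ethylene, 4 components of 19 were higher and 4 lower. ACO4 (0.55), EIN3 (0.50), EIL1 (0.39) and ERS1 (0.68) were the former, and ETR2 (-0.94), EBF1 (-0.51), RTE1 (-0.42) and EIN4 (-0.33) the latter. Without 0 h replicate 3 the list had 5 calls instead of 8. Among 19 brassinosteroid components 4 were higher and 2 lower, the former EXL2 (comp128479_c0, 2.69-fold), the synthesis enzyme CPD (comp114890_c0, 1.76-fold), the inactivating enzyme BAS1 (0.81) and the co-receptor BAK1 (0.34) and the latter EXL5 (-0.64) and the kinase BSK1 (-0.27). BSK1 lost its call without 0 h replicate 2 (edgeR adjusted p = 0.0960).

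Stress factors of the WRKY, NAC, ERF and zinc-finger families had 8 of 29 components higher and 1, WRKY70 (-0.79), lower. WRKY40 (comp116411_c1) had 86.7, 56.4 and 39.3 at 0 h and 168, 146, 124 and 118 at 6 h, and NAC047 (comp123845_c0) had 59.9, 49.7 and 30.0 at 0 h and 105, 103, 94.6 and 93.5 at 6 h. Without 0 h replicate 3 or 6 h replicate 1, 5 of these factors were higher. Genes of low oxygen were called in both directions, 2 higher and 4 lower of 12 tested, and 5 higher and 4 lower without 0 h replicate 3. Without 0 h replicate 1 or 2 the counts were 1 higher and 3 lower. LBD41, a factor that low oxygen induces, was lower in both components. Component comp122621_c0 had 748, 966 and 719 at 0 h and 285, 233, 183 and 264 at 6 h (3.32-fold lower, edgeR adjusted p = 3.8e-09), and PCO2 (-0.55) and LDH (-0.43) were lower too. The haemoglobin HB1 (comp89047_c0) had 36.4, 39.8 and 31.4 at 0 h and 111, 108, 47.3 and 129.7 at 6 h, and 1 of 3 components of the alcohol dehydrogenase ADH1 rose by 0.78. Enzymes of reactive oxygen and glutathione had 9 of 30 components higher and 3 lower, with 2 of CAT2 and 3 of GSTU7 among the rises and APX2 (-1.03), APX1 (-0.37) and RBOHF (-0.66) as the falls. Without 0 h replicate 2 or 6 h replicate 1 the list had 1 lower component.

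In light signalling 10 of 24 components were higher and 4, of PHYE, SPA4, CRY2 and PIF3, lower (-0.39 to -0.27). Leaving out any 1 library except 0 h replicate 1 gave 2 lower. HY5, a central factor of light response (comp119759_c1), had 17.0, 14.9 and 7.20 at 0 h and 35.8, 33.0, 17.9 and 32.7 at 6 h. This component passed the filter through 6 h only. PORA, an enzyme of chlorophyll synthesis, rose by 1.02, PIF1 by 0.77, GLK2, a factor for chloroplast genes, by 0.72 and the blue light receptor CRY1 by 0.48 and 0.49. Among light-harvesting and photosystem proteins, 9 of 30 components were higher and 0 lower, with a median log2 fold change of 0.55. PSBO2 (comp107311_c0), of the oxygen-evolving complex, had 194, 204 and 234 at 0 h and 460.2, 384, 441 and 384 at 6 h (1.96-fold). The number of calls on this list depended on the libraries, with 3 without 0 h replicate 1, 3 without 0 h replicate 2, 5 without 0 h replicate 3, 4 without 6 h replicate 1, and 17 in a fit of the 7 libraries alone.

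Clock genes follow the time of day, and labels and methods each give 1 harvest hour for both groups but differ on which. LHY (comp133357_c0), a morning gene, had 1902, 1785 and 1197 at 0 h and 650.3, 591, 407 and 615 at 6 h, 2.85-fold lower (edgeR adjusted p = 1.3e-06). LNK2 and RVE1, also morning genes, were lower (-0.82 and -0.83), while GI, PRR7 and 1 of 2 ELF3 components rose by 0.58, 0.52 and 0.56. Thus 6 of 15 clock components were called, 3 higher and 3 lower. The mean of LHY was 1683 at 24 h and 1048 at 72 h, beside 1628 at 0 h and 566 at 6 h.

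Cell wall genes were called in 13 of 24 components, 8 higher and 5 lower. The pectin methylesterase PME3 (comp118468_c0) had 1233, 1257 and 1269 at 0 h and 2157, 2355, 2213 and 2393 at 6 h (1.82-fold, edgeR adjusted p = 2.6e-07), and the polygalacturonase inhibitor PGIP1 rose 3.76-fold in comp103539_c0. The expansins EXPA10, EXPA6 and EXPA4, which loosen walls during growth, had components that were lower (-1.04, -0.61 and -0.54), and so were XTH5 (-0.80) and EXLA2 (-0.76), while XTH30 and 2 components of XTH6 rose (1.09, 0.80 and 0.68). Of wax, cutin and suberin genes 7 of 26 components were higher and 1, CER4 (-0.56), lower, with CER2 (1.02) and LACS1 (0.84) in front. Without 0 h replicate 3 the counts were 3 higher and 3 lower, and the median turned from 0.06 to -0.12.

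**Figure D4:**
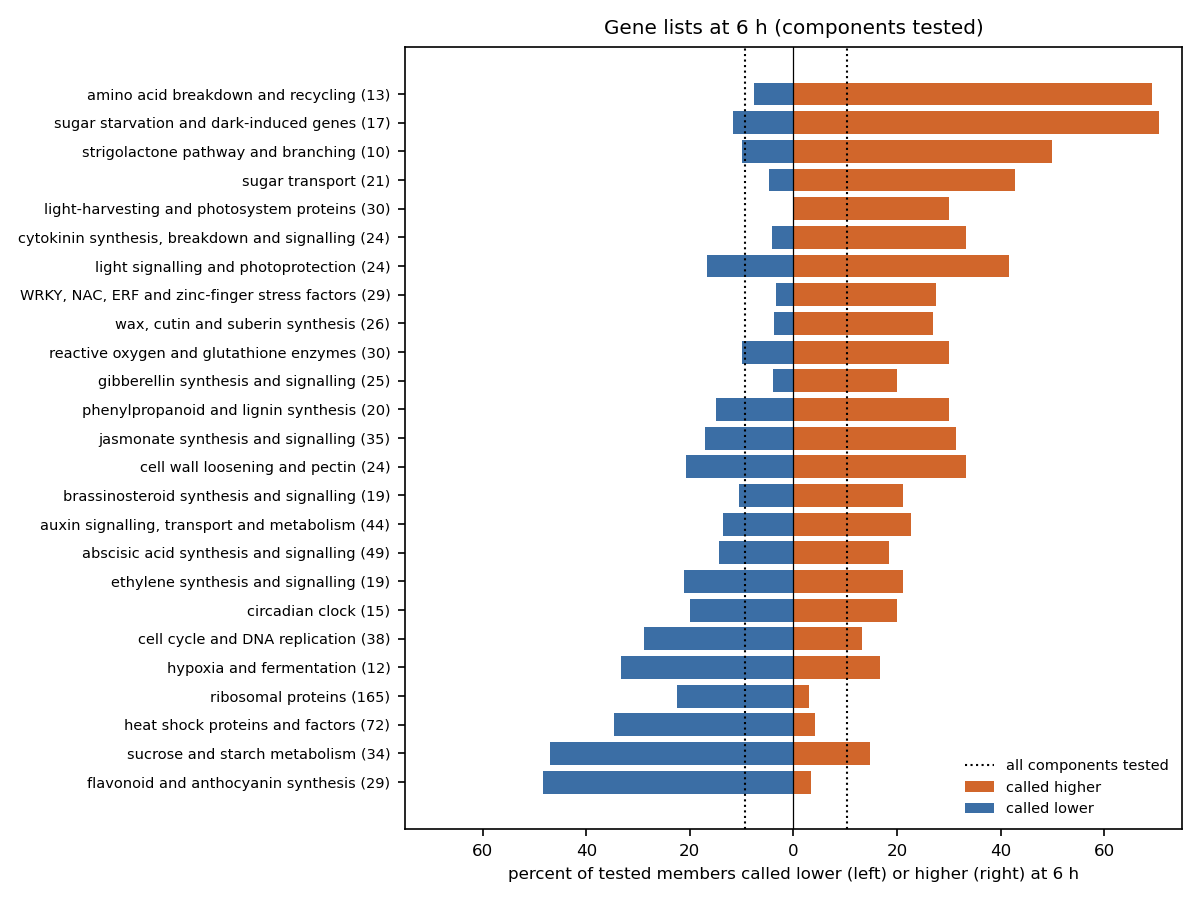
Percent of the tested components of each gene list that were called higher or lower at 6 h, with the number tested beside its name and dotted lines at the shares over all 17600 components, 10.4 and 9.45%. The lists for sugar starvation and amino acid breakdown have the greatest shares called higher, and those for flavonoid and starch metabolism the greatest shares called lower. They were chosen with earlier results of these data known, so the shares are descriptions.

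The leading changes were set beside 24 h and 72 h, which are compared with the same 3 libraries of 0 h. A direct contrast of 24 h with 6 h called 40.1%. Of all components, 49.4% were called at 24 h and 16.7% at 72 h against 0 h. Starch genes stayed low: GPT2 (comp130161_c0) had means of 244, 252 and 525 normalized counts at 6, 24 and 72 h after 2207 at 0 h, GBSS1 1587, 1539 and 2212 after 6716, and APL4 471, 516 and 552 after 3088. ASN1 had 4041, 3659 and 2036 after 573. Other leaders had a lower mean at 24 h than at 6 h. MIOX4 had 1227, 382 and 386 after 163, CXXS1 118, 45.5 and 23.6 after 2.57, and LOX2 (comp137538_c0) 3151, 1255 and 649 after 693. ProDH1 had 406, 58.0 and 380.0 after 79.2.

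**Figure D5:**
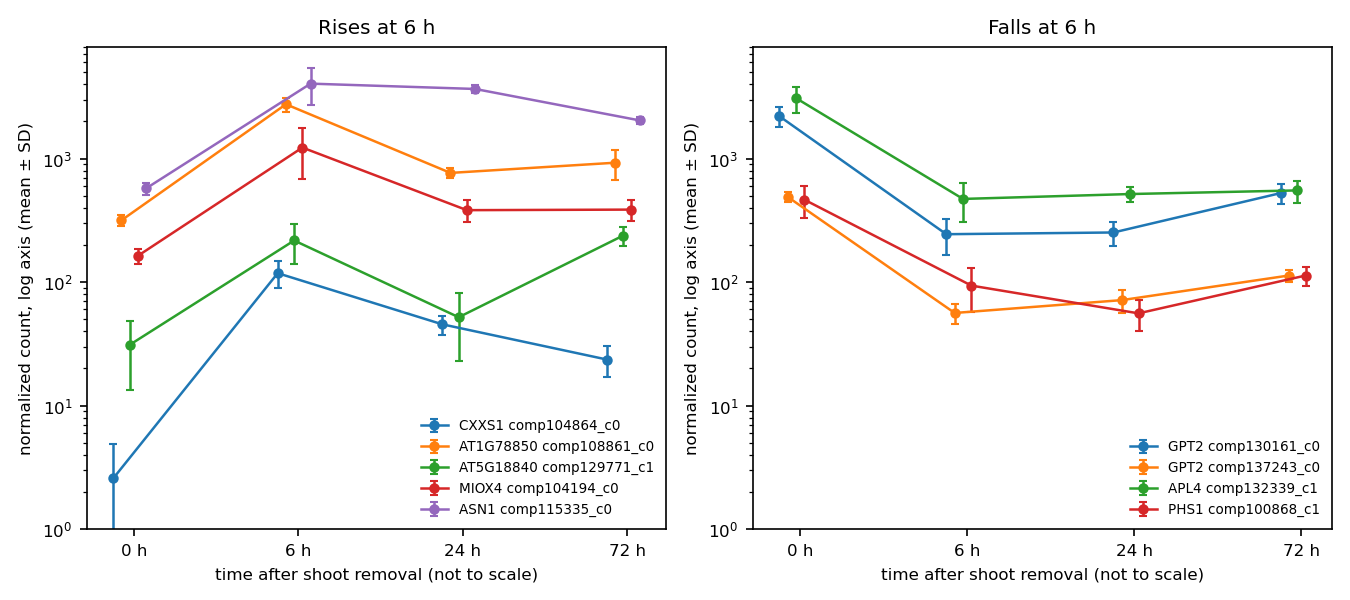
Normalized counts on a log axis (mean and SD, 3 libraries at 0 h and 4 at each later time, time steps not to scale, the lower bar of CXXS1 at 0 h running off the axis) of the leading rises and falls whose mean exceeds 100 in 0 h or 6 h buds. The means of GPT2, APL4 and PHS1 stay below their 0 h level to 72 h, while those of AT1G78850, MIOX4 and CXXS1 are lower at 24 h than at 6 h.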

How the data were processed

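RNA-seq libraries of crown buds were sequenced by the authors as paired ends on a single lane and trimmed with Sickle. Reads were assembled with those of other leafy spurge studies by Trinity, contigs were annotated by BLASTX against the nr and TAIR10 proteins, and RSEM estimated abundance. The deposited values are RSEM expected counts per contig and per component, unnormalized, and 86.8% of component values above 0 lie within 0.005 of a whole number. RSEM can divide reads among similar contigs, several components can share an Arabidopsis code, and the strand setting and tool versions are not given in the sources used here. The deposited columns of the authors' own EBSeq probabilities were not used.

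The deposited component values (223732 components of 569227 contigs) were rounded, scaled by median-of-ratios size factors and kept where all libraries of 0 h, or all of 6 h, exceeded 10 normalized counts. edgeR 4.0.16 (R 4.3.3) fitted its quasi-likelihood test to the 15 libraries, grouped by their 4 time points, in place of the authors' EBSeq. Benjamini-Hochberg adjustment ran over all 17600 components tested, and 0.05 was the threshold. The replicates differed by more than counting error, with an edgeR common biological coefficient of variation of 9.95%. Labels do not say that replicates came from separate plantings, so p-values measure the spread between these pools. Counting intervals and floors cover counting error only.

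Genes were named by a rule. The 15 largest rises and falls and the 5 largest gains and losses in counts were taken among called components with groups not overlapping, a plant best hit and at least 80% of the counts on the leading Arabidopsis code. In each of 30 lists up to 4 called members with the smallest p were added without those conditions. A few list members are not reported here. The members and lists were chosen with earlier results of these data known. Alternatives were DESeq2 1.42.0, limma 3.58.1 on log2(normalized count + 1), TMM scaling, other filters and thresholds, a replicate block and leaving out each library. Tables and exact tests used scipy 1.17.1 with pandas 2.3.3 under Python 3.11.15, and figures used matplotlib 3.10.9. Exact permutation tests over 3 and 4 libraries have 35 splits, and the smallest two-sided p is 0.0571.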

Additional observations from a re-analysis of the deposited data

Results flagged for a closer look

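Of the 30 leading components, 19 had a different change from 0 h at 24 h than at 6 h, by the edgeR contrast of 24 h with 6 h, which called 40.1% of all components. The components were chosen for their change at 6 h, so this count is a description. Values below are 24 h minus 6 h on the log2 scale, and both changes are relative to the same 0 h libraries.

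Among the rises, lower values at 24 h were found for CXXS1 (-1.36), AT5G62360 (-2.36), PYL4 (-2.11), EXLB1 (-0.92), TPS21 (-0.78), PP2-A13 (-0.77), AT1G78850 (-1.85), AT5G18840 (-2.13), MIOX4 (-1.69) and AT1G03220 (-1.27). AT5G21910 (0.57) and the UMAMIT-type exporter AT4G30420 (0.85) were higher at 24 h than at 6 h.

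Among the falls, higher values at 24 h were found for PIN5 (4.47), the RCC1-type AT3G55580 (2.68), NRX1 (2.21), the nucleoside transporter AT1G02630 (1.05), GSTF11 (1.71) and AT3G17130 (0.97). The plastid phosphorylase PHS1 (comp100868_c1) was lower still (-0.70). The means of PIN5 were 22.9, 0.537, 12.1 and 14.3 normalized counts at 0, 6, 24 and 72 h, and those of NRX1 were 73.8, 11.8, 51.9 and 11.4.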

How the results depend on the processing

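No component that kept its call changed direction under the alternatives run, and the polyA-binding protein AT2G36660 left no value with a filter on the mean of the 7 libraries. The 3495 calls (1831 higher, 1664 lower) became 1957 (1077 and 880) at an adjusted p under 0.01 and 1755 (987 and 768) with a change of at least 1.5-fold, as both thresholds are stricter. Leaving out 1 library gave 2565 to 3370 components changed between 6 h and 0 h, 1393 to 1826 components called higher at 6 h and 1172 to 1558 components called lower at 6 h. Of the 3495 calls, these fits kept 69.3% (without 0 h replicate 3) to 88.9% (without 6 h replicate 3). Other scalings, tests and filters gave 3001 to 3724 calls and kept 78.5% (no filter) to 99.3% (TMM scaling) of the 3495. The median of all components moved by at most 0.005 on the log2 scale, but the scaling itself places that median near 0. The labels do not say that replicate numbers mark shared plants. Deviations from the group means had correlations of 0.052, 0.057 and 0.17 between same-numbered libraries of 0 h and 6 h. Between differently numbered ones these ran from -0.127 to 0.09. The replicate block gave 4160 calls, 2064 higher and 2096 lower, with 3358 of the 3495 among them. It raised the calls among ribosomal proteins from 42 to 86 and among WRKY, NAC, ERF and zinc-finger factors from 9 to 15. Of 137 named genes, 113 kept their call in every setting, and most of the others lost it only to a minimum of 1.5-fold. PSBP lost it without 0 h replicate 1 or 2 (edgeR adjusted p = 0.0637 and 0.0566), CER3 without 0 h replicate 3 (0.103) and BSK1 without 0 h replicate 2 or without a filter (0.0960 and 0.0759). The cause was not tested. Low depth limits components under about 10 counts, where the folds of AT5G62360 and PIN5 have wide intervals.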

Other observations

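Of the 17600 tested components, 15332 have an Arabidopsis code. Components without a code made up 299 of the 3495 called components, a smaller share than of those tested. They were 19 of the 103 components that changed at least 4-fold. Those named here were chosen after their values were seen. Component comp26680_c0, which has no protein hit, had 0, 0 and 0.655 at 0 h and 226, 149.6, 238 and 367 at 6 h. With 1 count at 0 h its ratio of 744 has a 95% counting interval of 133 to 29434. Component comp141111_c0, also without a hit, had 0, 0 and 0.655 at 0 h and 160.4, 119.7, 228 and 332 at 6 h. Both were at 0 in the 24 h and 72 h libraries, so they were counted in the 6 h pools and almost nowhere else.

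Component comp57808_c0, whose best hit lies in animals, had 0, 0 and 0 at 0 h and 33.3, 20.6, 44.1 and 44.4 at 6 h, at least 35.1-fold higher by the floor of 3 counts over the 0 h group, and was likewise at 0 at 24 and 72 h. A conserved plant protein of unknown role (comp126101_c2) had 0, 0 and 0.655 at 0 h and 53.1, 50.6, 45.7 and 60.7 at 6 h, and its means at 24 and 72 h were 18.7 and 7.74. In the other direction comp129632_c0, without a hit, had 100.3, 85.9 and 127 at 0 h and 1.23, 1.03, 1.63 and 1.17 at 6 h (log2 fold change -6.36, SE 0.37, edgeR adjusted p = 1.5e-10). Its means were 1.31 and 3.55 at 24 and 72 h, beside 1.27 at 6 h. What these transcripts encode was not tested.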
